A study of Homo sapiens with 10 samples.

Results

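Wide stretches of chromatin that were occupied by SMARCB1 but carried no BRD9 peak are described here. They were chosen by merging the SMARCB1 peaks of both replicates and keeping merged regions that were 2000 bp to under 10000 bp wide. Each had to hold a peak of both SMARCB1 replicates and to overlap no peak in any of the 6 BRD9 lists. The rule gave 7876 regions out of 22411 SMARCB1 regions in that width range and 87773 SMARCB1 regions in all. The number depends on the second SMARCB1 library, without which it was 3813 (25.9% of the wide regions then formed). The other 14535 wide regions overlapped a BRD9 peak in at least 1 list and serve as the comparison. The cell line was G401, from a rhabdoid tumour and SMARCB1(-/-) per the labels, in which doxycycline induced a construct for either SMARCB1 or GFP. Binding was mapped by CUT&RUN, in which an antibody guides a nuclease to its target and the released DNA is sequenced. SMARCB1 was mapped in 2 libraries of SMARCB1-induced cells. BRD9 was mapped in 3 libraries of GFP-induced cells and in 3 of SMARCB1-induced cells. Every group shares the SMARCB1(-/-) background and 1 cell line, and nothing in the labels says that replicates came from separate cultures, so p-values measure only the spread between these libraries.

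SMARCB1 is a core subunit of the canonical BAF and PBAF remodelling complexes, which slide and evict nucleosomes at enhancers and promoters. BRD9 is a bromodomain protein of the non-canonical BAF complex, which is assembled without SMARCB1. Rhabdoid tumours are driven by loss of SMARCB1 and depend on BRD9. Regions that hold one protein without a call for the other are therefore places where the complexes were not both detected.

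The SMARCB1 libraries were deeper than the BRD9 libraries, with 64.2 and 59.7 M reads against 10.1 to 13.9 M. The weakest BRD9 peaks, at the 1st percentile of a list, held 9 or 10 reads, and the lowest wide BRD9 peaks had densities between 2.40 and 2.92 reads per kilobase and M reads (RPKM). A region without a BRD9 peak is thus one in which BRD9 was not detectable at this depth, and it is not shown to lack BRD9. All 6 BRD9 lists were called against a control library of the same size, 23.1 M reads, so their calls are not fully independent.

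Absence of BRD9 went with the width of the SMARCB1 region. A wider region has more room to share 1 bp with some BRD9 peak, so width is part of the call. How much of the trend this makes up was not tested. Of the wide regions 35.1% (95% Wilson interval 34.5 to 35.8%, counting error only) were without BRD9, against a background of 63.1% over all SMARCB1 regions. Below 2000 bp the share was 74.4%, and at 10000 bp or more it was 2.98%, or 46 of 1542 regions. Within the wide range it was 45.6% at 2000 to under 3000 bp, 33.0% at 3000 to under 4000 bp, 23.4% at 4000 to under 6000 bp and 13.0% at 6000 to under 10000 bp. The members therefore lay at the narrow end, with a median width of 2657 bp and quartiles of 2250 and 3450 bp. Wide regions with BRD9 had a median of 3350 bp. Together the members spanned 24.3 Mb, and the wide regions with BRD9 57.1 Mb.

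The lower width limit did not coincide with a step in the data. Of regions 2000 to under 2100 bp wide, 51.7% were without BRD9, and of those just outside, 1900 to under 2000 bp, 52.1%. SMARCB1 density in these BRD9-free regions was 1.401 and 1.453 RPKM in replicates 1 and 2 just inside the limit, and 1.392 and 1.451 RPKM just outside. At the upper limit 29 of 307 regions of 9000 to under 10000 bp were members, and 10 of 250 regions of 10000 to under 11000 bp were without BRD9. A BRD9 peak lay within 500 bp of 255 members (3.24%). Among the 3307 wide regions with BRD9 in 1 list alone, 21 were called by an overlap of at most 100 bp.

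The rule asks for no BRD9 in both conditions, but the lists of SMARCB1-induced cells did most of the narrowing. In the GFP lists 86.6%, 80.2% and 83.5% of the wide regions had no peak, and in the SMARCB1-induced lists 54.4%, 54.3% and 52.9%. The GFP mean was 83.4 ± 3.16% (SD, n = 3) and the mean after SMARCB1 induction 53.9 ± 0.866% (SD, n = 3), without overlap. With 3 lists a group the smallest two-sided p of an exact permutation test is 0.1, which this difference of -29.6 points gave. Adjusted over the 10 such tests made between conditions, p was also 0.1. Of the 16677 wide regions free of BRD9 in all GFP lists, 7876 (47.2%) were also free after SMARCB1 induction. Over all wide regions that share was 39.3%. In the other direction, 7876 of the 8813 regions free in all SMARCB1-induced lists (89.4%) were also free in all GFP lists. Over all wide regions 74.4% were free in all GFP lists. The remaining 937 of the 8813 (10.6%) had BRD9 in GFP-induced cells and in no list of SMARCB1-induced cells.

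Whether the absence carried over to a list that took no part in the choice was tested by classing the wide regions on 5 BRD9 lists and reading the remaining one. Regions free in the other 5 lists had a peak in the held-out list in 1.59%, 4.21% and 2.42% of cases for GFP replicates 1, 2 and 3. For SMARCB1-induced replicates 1, 2 and 3 the values were 9.27%, 10.03% and 10.8%. Regions with BRD9 in at least 1 of the other lists had a peak far more often, in 20.02%, 28.8% and 24.4% of cases for the GFP lists and 68.5%, 68.6% and 70.8% for the SMARCB1-induced lists. The share without a peak was higher among the free regions in 6 of 6 lists, by a mean of 21.7 points in GFP lists and 59.3 points in SMARCB1-induced lists. GFP lists had a peak in fewer wide regions, so the points are not comparable between conditions. The 6 classings also shared most of their lists, so the differences are not independent and a shared sign was likely beforehand. The mean over all lists was 40.5 ± 20.7 points (SD, n = 6; two-sided exact sign-flip permutation test, p = 0.03125, the smallest that 6 lists allow). With 5 lists the smallest possible p is 0.0625, so leaving out any BRD9 list takes this test past 0.05. The SMARCB1-induced lists were the sole source of a BRD9 call for 805, 878 and 956 wide regions, and the GFP lists for 127, 346 and 195.

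SMARCB1 itself was less dense in the members than in wide regions with BRD9, which were also wider at the median. In replicate 1 the members had a median of 1.41 RPKM (quartiles 1.29 and 1.57) and the regions with BRD9 1.72 RPKM (1.52 and 1.99). In replicate 2 the medians were 1.503 RPKM (1.35 and 1.69) and 1.90 RPKM (1.65 and 2.24). Regions with BRD9 were 1.22-fold and 1.26-fold denser, a mean log2 difference of -0.31 ± 0.039 (SD, n = 2) for the members. Both replicates gave the same direction, but 2 lists cannot give an exact sign-flip permutation p below 0.5, which is the value found. The gap was also present in each of the 5 width classes and in both replicates, from -0.23 on the log2 scale at 2000 to under 2500 bp in replicate 1 to -0.37 at 6000 to under 10000 bp in replicate 2. The distributions overlapped: 31.7% of members in replicate 1 and 30.1% in replicate 2 were denser than the lower quartile of wide regions with BRD9. Denser than their median in both replicates were 501 members (6.36%).

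Across regions grouped by the number of BRD9 lists with a peak, density was lowest in the members and higher in each class up to 3 lists. In replicate 1 the median was 1.41 RPKM in members, 1.54 in regions with BRD9 in 1 list, 1.63 in 2 lists and 1.84 in 3 lists. It was 1.77, 1.82 and 1.96 RPKM in regions called in 4, 5 and 6 lists. Replicate 2 had the same order, from 1.503 RPKM in members to 2.06 RPKM at 3 lists and 2.19 RPKM at 6 lists. Members were thus the least dense of the 7 classes in both SMARCB1 libraries. The classes were not matched for width, and median width also rose, from 2657 bp in members to 4425 bp at 6 lists.

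**Figure D1:**
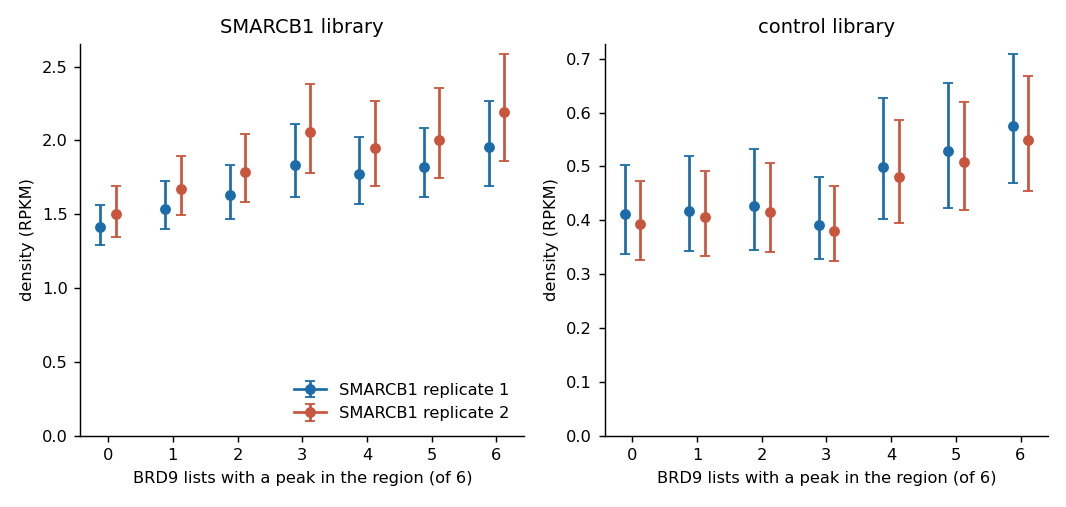
Density in RPKM (vertical axes, starting at 0) of wide SMARCB1 regions by the number of BRD9 lists with a peak in the region, where 0 marks the members; points are medians over regions and bars span the quartiles, for the 2 SMARCB1 replicates. The SMARCB1 density of the members, 1.41 and 1.503 RPKM, is the lowest of the 7 classes, while the control medians are higher at 4 or more lists, with quartile ranges that overlap those of the other classes. The classes are not matched for width.

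The control library of the SMARCB1 lists, which the deposited lists name only as a GFP negative control, moved less. Its median in the members was 0.411 and 0.393 RPKM over the intervals of replicates 1 and 2, against 0.434 and 0.423 RPKM in wide regions with BRD9. The mean log2 difference was -0.092 ± 0.018 (SD, n = 2; exact sign-flip permutation test, p = 0.5). Control density was lowest, at 0.376 and 0.370 RPKM, in the 4173 wide regions called in all SMARCB1-induced lists and in no GFP list. It was highest, at 0.576 and 0.549 RPKM, in the 1631 regions called in all 6 lists. Relative to the control, the members were 3.44-fold and 3.83-fold enriched for SMARCB1 at the median. All wide regions with BRD9 had 3.95-fold and 4.51-fold. The members' values were close to the 3.40-fold and 3.95-fold of regions with BRD9 in all 6 lists, and below the 4.998-fold and 5.74-fold of regions called in all SMARCB1-induced and no GFP lists. The part of the control in the calls was not tested.

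Width and SMARCB1 density each went with the share of wide regions that were members. Wide regions were ranked by mean density over both replicates and cut into 4 density classes of equal size. Of the lowest class 69.9% (1.05 to 1.45 RPKM) were without BRD9, then 42.8%, 21.4% and 6.41% of the highest (1.96 to 7.74 RPKM). The order was the same in each replicate alone, from 67.2% to 7.16% in replicate 1 and from 68.5% to 6.73% in replicate 2. Within each density class the share was also lower in wider regions, which have more room for an overlap. It ran from 74.0% (72.3 to 75.7%) at 2000 to under 2500 bp in the lowest class to 2.27% (1.58 to 3.26%) at 6000 to under 10000 bp in the highest. The lowest class supplied 3919 members (49.8%) and the highest 359 (4.56%). When regions were ranked by SMARCB1 over control, the share without BRD9 was 43.1%, 43.1%, 35.3% and 19.01% from the lowest to the highest class, a narrower range.

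**Figure D2:**
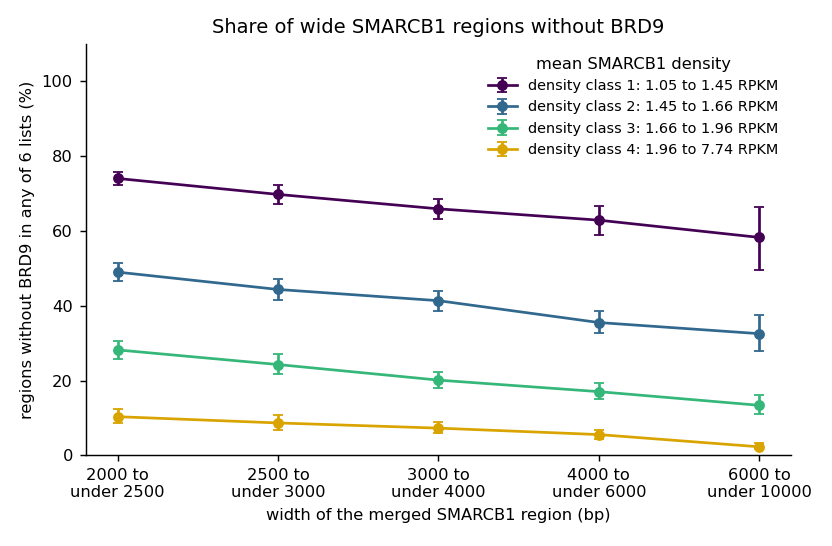
Share of wide SMARCB1 regions without BRD9 in any list (vertical axis, %) by width class (horizontal axis, bp), with 1 line for each of the 4 classes of mean SMARCB1 density; bars are 95% Wilson intervals. The lines are separate at every width, from 74.0% in the narrowest regions of the lowest density class to 2.27% in the widest of the highest.

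The replicates did not contribute alike to the width of the members. A member held a single peak in 49.5% of cases in replicate 1 and in 76.9% in replicate 2. A peak of at least 2000 bp was present in 36.7% of members in replicate 1 and 76.9% in replicate 2, and in both lists in 30.7%. Among wide regions with BRD9 the last share was 61.0%. Replicate 1 peaks covered 76.5% of the width of a member at the median and replicate 2 peaks 96.7%. A member held a median of 186 and 230 SMARCB1 reads in replicates 1 and 2, against 310 and 369 in wide regions with BRD9. The authors' score, the −log10 of the false discovery rate, had a median of 14.1 and 18.6 for the best peak of a member and 25.5 and 34.1 for regions with BRD9. Densities of single members differed between replicates by a median of 0.14 on the log2 scale, and 70.4% of members were denser in replicate 2. Counted on the part covered by peaks of both replicates, only 3399 regions without BRD9 were 2000 bp or wider.

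BRD9-free narrow regions gave a lower reference. The 47488 SMARCB1 regions under 2000 bp without BRD9 had medians of 1.38 and 1.39 RPKM in replicates 1 and 2, close to the 1.41 and 1.503 RPKM of the members. Their control density was higher, at 0.467 and 0.446 RPKM, and they held 52 and 64 SMARCB1 reads at the median. The weakest SMARCB1 peaks, at the 1st percentile of a list, had 1.094 and 1.088 RPKM in replicates 1 and 2. All SMARCB1 peaks had medians of 1.415 and 1.402 RPKM, so members and narrow regions both lay near the typical called peak. How far the limit for calling a peak narrowed these density differences, or the gap to wide regions with BRD9, was not tested.

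Although no BRD9 peak touched them, the members had BRD9 nearby, and nearer in SMARCB1-induced cells. The median distance from a member to the nearest BRD9 peak was 50.1, 39.2 and 40.8 kb in GFP replicates 1, 2 and 3. In SMARCB1-induced replicates 1, 2 and 3 it was 14.5, 14.8 and 13.9 kb. Over lists the distance averaged 43.4 ± 5.91 kb (SD, n = 3) and 14.4 ± 0.466 kb (SD, n = 3), a 3.01-fold difference or -1.59 on the log2 scale. The groups did not overlap (exact permutation test, p = 0.1 before and after adjustment over 10 tests, the smallest possible). The rule chose the members with these same lists. This and the later comparisons of members between conditions therefore describe the members and are not independent tests.

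Counts at a fixed distance gave the same picture. A BRD9 peak lay within 10 kb of 18.1%, 20.9% and 21.2% of members in the GFP lists and of 40.5%, 39.8% and 41.6% in the SMARCB1-induced lists. On average this was 20.04 ± 1.72% (SD, n = 3) against 40.6 ± 0.911% (SD, n = 3), 20.6 points apart (exact permutation test, p = 0.1 before and after adjustment). Wide regions with BRD9 also had more in the induced lists, with a further peak within 10 kb in 28.9 to 32.0% of cases in the GFP lists and 51.3 to 53.5% in the SMARCB1-induced lists. With all 6 lists merged, 9.13% of members had a BRD9 peak within 1 kb, 42.5% within 5 kb, 62.4% within 10 kb and 93.1% within 50 kb. For wide regions with BRD9, the shares within 1, 5 and 10 kb were 18.7%, 57.3% and 74.0%. Only 16 members were more than 500 kb from any BRD9 peak.

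Member by member, 3355 (42.6%) had a nearer BRD9 peak in each SMARCB1-induced list than in any GFP list, and 369 (4.69%) showed the opposite. Wide regions with BRD9, measured to the nearest peak outside the region, gave 41.9% and 6.96%, and all wide regions 42.1% and 6.16%. The members' shares were thus close to those of all wide SMARCB1 regions.

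**Figure D3:**
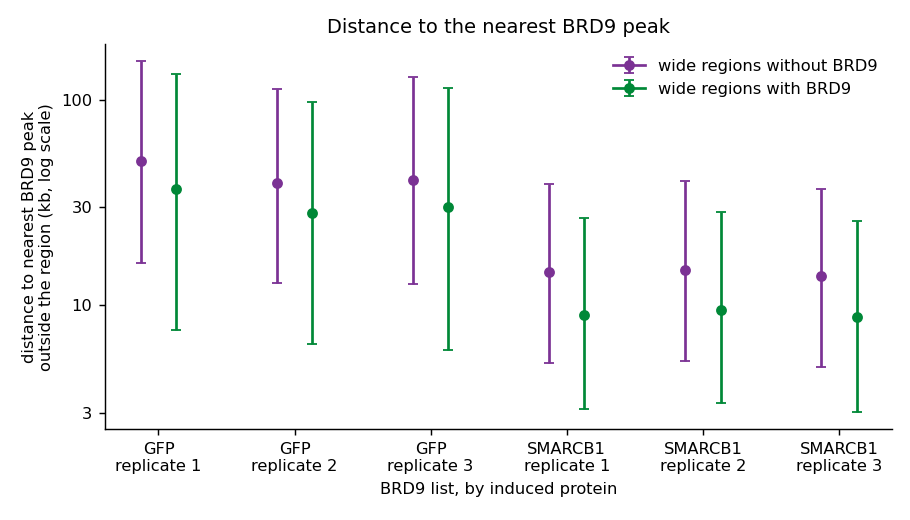
Distance in kb (vertical axis, log scale) to the nearest BRD9 peak outside the region in each of the 6 BRD9 lists, for wide regions without and with BRD9; points are medians over regions and bars span the quartiles. Members lie at 39.2 to 50.1 kb in the GFP lists and 13.9 to 14.8 kb in the SMARCB1-induced lists, above the wide regions with BRD9 in every list.

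Members were farther from BRD9 than wide regions with BRD9, whose own peaks were left out of the measure. Regions were not matched for width in these distance comparisons. The medians for wide regions with BRD9 were 36.55, 27.9 and 29.8 kb in the GFP lists and 8.94, 9.46 and 8.74 kb in the SMARCB1-induced lists. Because the rule used these lists, the difference was tested with regions classed on the other 5 lists. These classings shared most of their lists, so the 6 comparisons are not independent. The distance in the held-out list was then 1.32, 1.34 and 1.29 times as long for free regions in GFP replicates 1, 2 and 3. In SMARCB1-induced replicates 1, 2 and 3 the ratio was 1.62, 1.58 and 1.58. All 6 lists had the same direction, with a mean log2 ratio of 0.53 ± 0.15 (SD, n = 6; two-sided exact sign-flip permutation test, p = 0.03125, the smallest possible). The ratio was larger in each SMARCB1-induced list than in each GFP list, with mean log2 values of 0.67 and 0.40 (exact permutation test, p = 0.1 before and after adjustment). The mix of lists used for classing differed between the conditions, so these ratios are not comparable between them.

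The longer distance in held-out lists was found in each of the 4 density classes, again without matching for width. In the lowest class, regions free in the other 5 lists lay 13.8, 13.99 and 13.2 kb from BRD9 in SMARCB1-induced replicates 1, 2 and 3, and the other wide regions 8.46, 9.15 and 7.83 kb. In the highest class the free regions lay at 12.98, 14.8 and 12.4 kb and the others at 7.30, 7.68 and 7.08 kb. Over the 4 classes and 6 lists the free regions were 1.12 to 1.93 times as far. Narrow BRD9-free regions were farther still, at 22.4, 22.6 and 21.3 kb in the SMARCB1-induced lists.

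The BRD9 peak nearest to a member lay at another SMARCB1 region in 49.2%, 70.6% and 54.8% of cases in the GFP lists. In the SMARCB1-induced lists this was so for 91.0%, 91.9% and 89.8%. Averaged over lists the shares were 58.2 ± 11.1% (SD, n = 3) and 90.9 ± 1.09% (SD, n = 3), 32.7 points apart and without overlap (exact permutation test, p = 0.1 before and after adjustment). Over all BRD9 peaks, the share lying at a SMARCB1 region was 30.5 ± 10.7% and 62.5 ± 4.65% (SD, n = 3 for both). The GFP lists spread widely here, with replicate 2 nearest to the induced lists. Distances to the 2 kinds of BRD9 peak were ordered in opposite ways. To peaks at SMARCB1 regions the median was 78.5 ± 24.97 kb in GFP-induced and 15.6 ± 0.375 kb in SMARCB1-induced cells. To peaks elsewhere it was 117 ± 28.9 kb and 214 ± 36.7 kb (SD, n = 3 for every mean; both exact permutation tests gave p = 0.1 before and after adjustment). Neither pair of groups overlapped.

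Members were found on all 24 chromosomes, and on 16 of these they made up 30 to 38% of the wide regions. The share of wide regions that were members was highest on chromosomes 7 (41.8%, 603 of 1444), 4 (41.1%, 525 of 1277) and 10 (40.7%, 537 of 1319). It was lowest on chromosome 19 (12.3%, 46 of 375), followed by Y (24.0%, 6 of 25) and X (28.4%, 50 of 176). The 95% Wilson interval of chromosome 19 was 9.32 to 16.0% and covers counting error only. These chromosomes are named for their shares, which are therefore a description.

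Each list was then compared on its own, as the share of wide regions without a peak on a chromosome minus that on all others. Chromosome 19 was lower in 6 of 6 lists, with differences of -31.9, -40.9 and -35.3 points in the GFP lists and of -22.7 to -18.5 points in the SMARCB1-induced lists. Chromosomes 7, 4 and 10 were higher in 6 of 6 lists, by means of 4.94, 3.80 and 4.28 points. These chromosomes were named from the same lists, so the agreement over lists is a description too. Chromosomes 3, 8 and 15 were also higher in 6 of 6 lists, and chromosomes 6 and Y lower. None of the 24 chromosomes passed an adjusted p of 0.05 in either direction (0% and 0%), although 9 had the smallest p that 6 lists allow, 0.03125 (two-sided exact sign-flip permutation test, adjusted p = 0.0833). Of these, 6 were higher and 3 lower.

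The chromosomes also differed in the density and width of their regions. When each region was given the average share of its density and width class, chromosome 19 would have had 30.6%, above the 12.3% observed. Chromosomes 7, 4 and 10 would have had 36.3%, 36.9% and 35.2%, below the values observed. Chromosome 8, singled out after its values were seen, would have had 27.7% and had 37.5%. Its wide regions were dense in both libraries, with 1.77 RPKM of SMARCB1 and 0.59 RPKM of control in replicate 1, whereas X had 1.48 and 0.21 RPKM. Chromosome 19 had 1.70 and 0.56 RPKM. With SMARCB1 over control in place of density, chromosome 8 came to 37.97%, next to the 37.5% observed. The observed 28.4% of X lay below the 41.9% given by density and above the 24.3% given by SMARCB1 over control. For chromosome 19 the value became 39.6%, and for chromosomes 7, 4 and 10 it was 36.0%, 34.2% and 34.0%. Narrow regions had the same extremes, with 47.3% without BRD9 on chromosome 19 and 80.3% on chromosome 7.

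**Figure D4:**
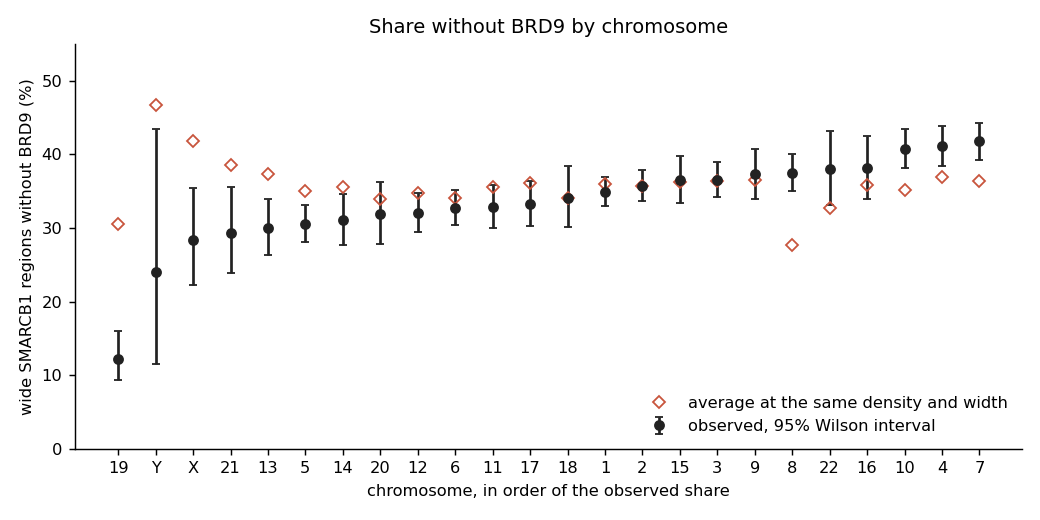
Share of wide SMARCB1 regions without BRD9 on each chromosome (filled points, vertical axis in %, bars are 95% Wilson intervals), in order of the share, with the share averaged over regions of the same SMARCB1 density and width (open diamonds). Chromosome 19, at 12.3%, lies below the other chromosomes and below its diamond at 30.6%, and chromosomes 10, 4 and 7 lie above theirs.

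Members tended to follow each other along a chromosome. Of the wide regions next in line after a member 44.5% were members too, and after a wide region with BRD9 30.1% were. The nearest other SMARCB1 region of any kind was 0.775 kb from a member at the median, and 0.995 kb from a wide region with BRD9. The nearest SMARCB1 region with BRD9 was 6.63 kb from a member, and the nearest other one without BRD9 1.60 kb. In total 202 runs of 5 or more members held 1301 of them (16.5%). Runs were counted over wide regions only, so narrow regions with BRD9 can lie between members.

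The longest run had 17 members on chromosome 10 from 21836176 to 21997951 (hg19), with median densities of 1.35 and 1.39 RPKM in replicates 1 and 2. Of the 36 SMARCB1 regions of any width in that span, 33 were without BRD9 and 3 narrow ones had it. The span was not empty of BRD9, with 4, 2 and 2 peaks in GFP replicates 1 to 3 and 2, 3 and 3 in SMARCB1-induced replicates 1 to 3. The next run had 16 members on chromosome 4 from 151329926 to 151575376, with 1 BRD9-holding SMARCB1 region among 32. BRD9 peaks in it numbered 1, 1 and 2 in the GFP lists and 0 in each SMARCB1-induced list. The third, with 15 members on chromosome 6 from 105214126 to 105531776, held 0 BRD9 peaks in all 6 lists across 318 kb, and all of its 30 SMARCB1 regions were without BRD9.

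**Figure D5:**
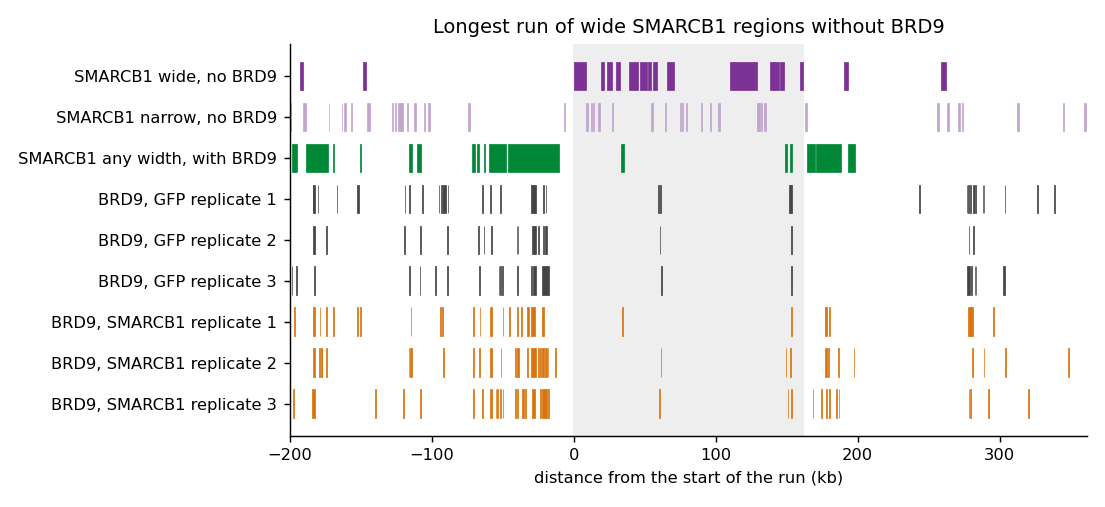
Map of the longest run of wide SMARCB1 regions without BRD9 (shaded, 162 kb) with 200 kb on either side; the horizontal axis is the distance in kb from the start of the run and each row is a class of SMARCB1 region or the BRD9 peaks of 1 list. The 17 members cover 41.6% of the shaded span with a longest gap of 39.0 kb. Each BRD9 list has 2 to 4 peaks inside it, and BRD9-holding SMARCB1 regions adjoin it on both sides.

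Single members show the range. By mean SMARCB1 density the first was on chromosome 20 from 50311076 to 50316976, with 2.45 and 3.11 RPKM in the 2 replicates from 885 and 1058 reads. The control had 0.294 and 0.311 RPKM there, and a BRD9 peak of a GFP list lay 343 bp away. The second, on chromosome 1 from 68778426 to 68781476, had 2.48 and 2.89 RPKM and BRD9 at 1.13 kb. Chromosome 15 held a member of 9400 bp from 63840076 to 63849476, with 2.45 and 2.77 RPKM and no BRD9 within 27.5 kb. Chromosome 17 held the other 2, from 56060751 to 56065362 (2.28 and 2.82 RPKM) and from 35654176 to 35660701 (2.54 and 2.53 RPKM). The nearest BRD9 peak lay 0.514 kb from the former and 7.025 kb from the latter. By mean density over both replicates, 504 wide regions with BRD9 (3.47%) were denser than every member.

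Members with the highest SMARCB1 over control were mostly on the sex chromosomes, where the control was sparse. The first was on X from 133099026 to 133101301, at 18.5-fold and 22.3-fold in the 2 replicates from 8 and 6 control reads. The others on X ran from 31612901 to 31618126 (16.4-fold and 18.1-fold) and from 135265876 to 135268676 (13.8-fold and 18.1-fold), and 1 was on Y from 17117201 to 17119201 (14.0-fold and 17.7-fold). The exception was on chromosome 3 from 185254976 to 185257001, at 16.4-fold and 24.9-fold with 2.01 and 2.44 RPKM. That region had BRD9 at 5.75 kb in SMARCB1-induced cells and at 28.1 kb in GFP-induced cells.

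The members farthest from BRD9 lay on chromosomes 3 and 4. A pair on chromosome 3, from 85527651 to 85534626 and from 85481101 to 85484201, was 1544 and 1497 kb from any BRD9 peak of the 6 lists. Their SMARCB1 densities were 1.25 ± 0.098 and 1.97 ± 0.170 RPKM (SD, n = 2), so the second was also among the denser members, at rank 327 of 7876. The 3 on chromosome 4 started at 155470576, 62371426 and 81227976, with BRD9 at 874, 810 and 805 kb. Their densities were 1.64 ± 0.050, 1.57 ± 0.437 and 1.37 ± 0.164 RPKM (SD, n = 2), within the range of ordinary members.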

How the data were processed

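Members, lists of results and tests were chosen with earlier results of these data known. Each list holds the peaks of 1 sample, with its read count, that of a control library, and both as RPKM, as deposited by the authors. The −log10 of the false discovery rate is the authors' score, and the deposited log2 fold difference was not needed. The submitters' processing notes name BWA 0.7.12-r1039, SAMtools, bedtools, DiffBind and edgeR without their role; the peak caller is not given in the sources used here. SMARCB1 lists are on hg19 per their names, and coordinates are printed as deposited. The BRD9 lists name no genome build, and the same build was assumed for them.

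Library sizes came from the ratio of counts to RPKM. Intervals overlapped when they shared 1 bp. Density is the reads of all peaks of a list in a region, per kb of those peaks and M library reads. Distances run to the nearest peak outside the region. Conditions were compared over lists with exact permutation tests, adjusted by Benjamini-Hochberg. Named regions were the 5 densest members, the 5 highest over control, the 5 farthest from BRD9, the 3 longest runs, and the 3 chromosomes with the highest and lowest shares. Alternatives for score, overlap, merging, width, peak number and replicates are given at the end. The code recovered 626 of 626 regions planted in artificial lists, and 600 brute-force checks gave 0 differences. Gene names and sequences were not used here, because no hg19 genome or annotation was at hand. The SMARCB1 library of GFP-induced cells and the IgG library had no peak list among those used and were not analysed as samples. Whether either served as a control library of the lists is not stated in the sources used here. Python 3.11.15, numpy 2.4.6, pandas 2.3.3, scipy 1.17.1 and matplotlib 3.10.9 were used.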

Additional observations from a re-analysis of the deposited data

How the results depend on the processing

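Of 144 recomputed values, 129 kept their direction and side of the threshold or stayed within 1.5 times of the count, and 0 reversed. For the density, control and between-condition results the smallest possible p lies above 0.05. Their side of the threshold was thus fixed beforehand, and only their direction could change. The number of members was 3399 when width was counted on the part covered by both replicates, 2943 with a lower limit of 3000 bp, and 3813 in replicate 1 alone (without SMARCB1 replicate 2). Leaving out 1 list at a time gave 3813 to 8832 members. The held-out share difference was 36.5 to 44.9 points and the held-out log2 distance ratio 0.52 to 0.64 over those fits. Without any 1 BRD9 list, 5 lists cannot give a p below 0.0625, the value found. The log2 density difference stayed between -0.33 and -0.27 over its alternatives; within width classes, an alternative added after seeing the data, it was -0.27. Same-numbered lists hardly deviated together over wide regions (correlations 0.00029, 0.018 and 0.0023). This cannot tell whether they shared a batch, which the labels do not state. With a replicate block the differences were -1.58 (log2 distance), 20.6 points (share within 10 kb) and -29.6 points (share without a peak), each with p = 0.25 (exact sign-flip permutation test), the smallest that 3 pairs allow. Gene and sequence comparisons were not run. At 9 or 10 reads for the weakest BRD9 peaks, depth limits every statement of absence.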
